A study of Mus musculus with 3 samples.

Results

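The 10 genes described here make and load the mouse MHC class I molecule. They are B2m, H2-K1, H2-D1, Tap1, Tap2, Tapbp, Nlrc5 and the immunoproteasome genes Psmb8, Psmb9 and Psmb10. They were chosen by gene symbol, not by measured value, and all 10 were measured, by 27 of the 45101 probe sets on the array. The platform annotation names 18193 genes through probe sets that carry a single gene symbol. Another 3 probe sets carry a member's symbol together with others.

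The samples were 3 replicate preparations of total RNA from F9 cells, each on 1 Affymetrix Mouse Genome 430 2.0 array. F9 is an established mouse embryonal carcinoma line, grown here undifferentiated on gelatin-coated plastic in serum-containing medium and harvested before confluence. All 3 arrays form 1 group, with no treated, differentiated or other cell as a reference, so each gene could be compared only with background on the same arrays. The labels do not state whether the RNA came from separate cultures, so p-values cover the spread between these preparations alone, and that spread may be technical.

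Class I molecules display peptides from inside the cell to cytotoxic T cells. The proteasome cuts proteins into peptides, the Tap1 and Tap2 proteins pump them into the endoplasmic reticulum, tapasin (Tapbp) holds the transporter next to the empty class I molecule, and the filled complex of heavy chain and beta-2-microglobulin (B2m) moves to the surface. Interferon gamma swaps the catalytic subunits Psmb6, Psmb7 and Psmb5 for Psmb9, Psmb10 and Psmb8, which makes the immunoproteasome, and Nlrc5 is a transactivator of class I promoters. Early embryonic cells and embryonal carcinoma lines such as F9 are known for little or no H-2 class I antigen on their surface.

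A probe set was called above background where its log2 signal exceeded a threshold set on each array by genes of narrow expression, tested with limma (one-sided, Benjamini-Hochberg adjusted p under 0.05). The thresholds were signals of 44.6, 46.1 and 43.2 on replicates 1, 2 and 3. A gene was represented by its probe set with the highest mean signal. A gene that was not called is not shown to be absent, and signals of different probe sets cannot be ranked against each other because probes differ in affinity. In RNA from a whole culture, fewer expressing cells and less RNA per cell cannot be told apart. All 6 embryonal carcinoma markers, among them Pou5f1 and Nanog, were above background, as against 1 of 8 leukocyte, 1 of 7 fibroblast and 0 of 5 endoderm markers; of the endoderm markers, 2 had an unadjusted limma p under 0.05. These were Gata6 (59.3, 60.2 and 53.0) and Sox17 (55.2, 63.3 and 90.7), endoderm transcription factor genes close to the threshold, which were called in 7 and 6 of 15 alternative settings.

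Of the 10 genes, 5 were above background: B2m, H2-K1, H2-D1, Tapbp and Psmb10. The other 5, Tap1, Tap2, Nlrc5, Psmb8 and Psmb9, were not. The share of 50% lay next to the 51.1% of all 18079 named genes outside the background families. Counted by probe set, 10 of 27 were called, beside 45.2% of all probe sets with 1 symbol. The median of the 10 genes was 1.15 log2 units over the threshold, and that of all named genes 0.72. The share itself is therefore no result about these genes, and what follows describes which of them were on which side of background.

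**Figure D1:**
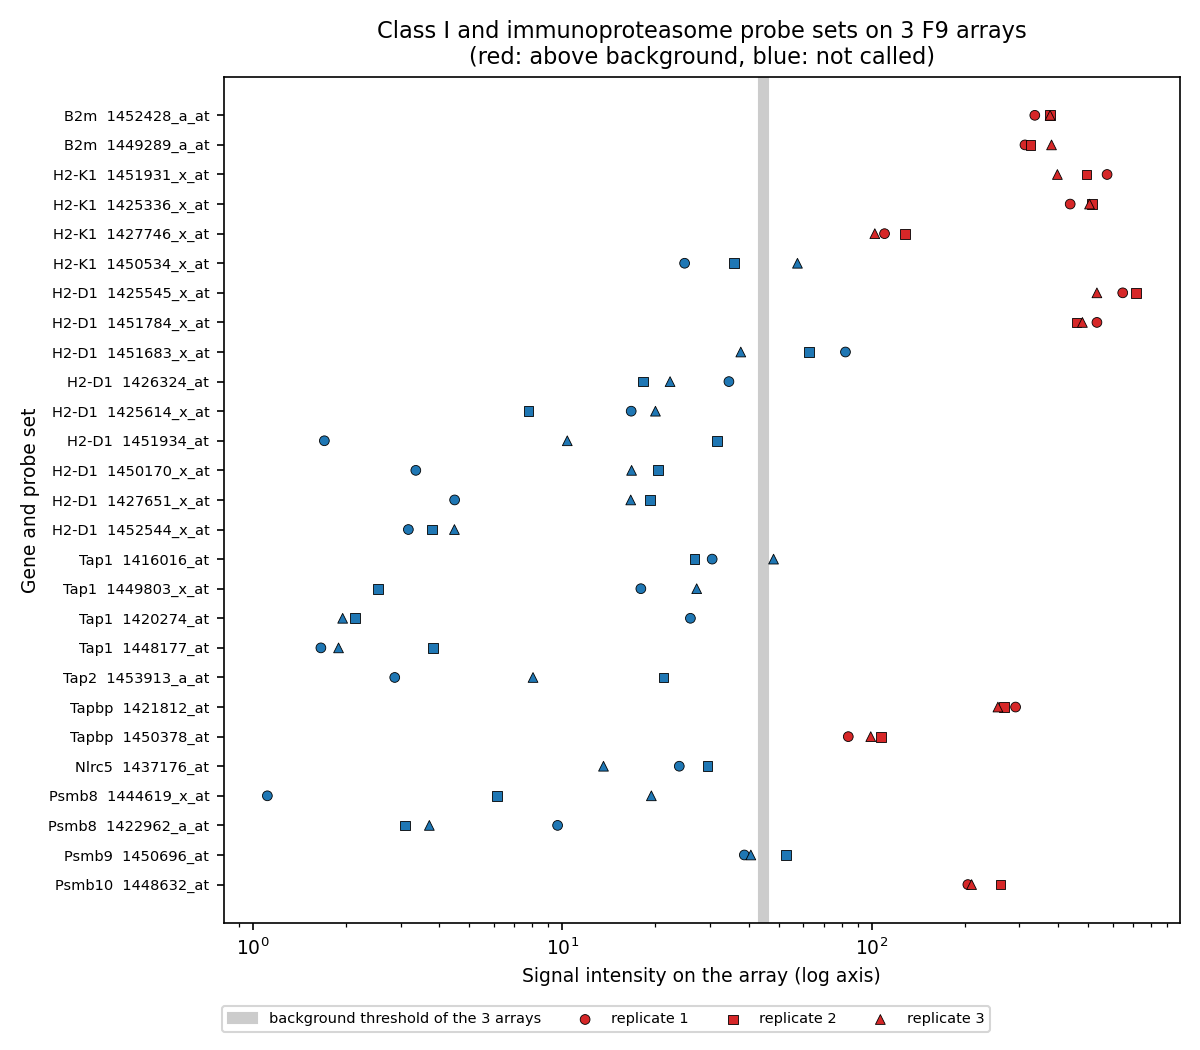
Signal intensity (log axis) of each of the 27 probe sets on replicates 1, 2 and 3 (circle, square and triangle), with the grey band spanning the thresholds of 43.2 to 46.1. The 10 probe sets called above background (red) had all 3 arrays to the right of the band, whereas each of the 17 others (blue) had at least 1 array to the left of it, with up to 18.6 times between the highest and the lowest array.

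The light chain was measured without ambiguity. B2m, whose product pairs with every classical class I heavy chain, had signals of 337, 378 and 377 on replicates 1, 2 and 3 with 1 probe set (1452428_a_at) and of 313, 326 and 381 with the other (1449289_a_at). Every array lay well above its threshold with both, and the highest array exceeded the lowest by 1.12 and 1.22 times. The fitted values were 3.03 ± 0.12 and 2.93 ± 0.14 log2 units over the threshold (SE, n = 3 arrays; limma adjusted p = 0.000213 and 0.000324).

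The heavy chain genes gave a divided result. H2-K1 encodes the K heavy chain, and its probe set with the highest mean (1451931_x_at) had signals of 576, 495 and 398. Its probe set 1425336_x_at had 438, 514 and 506, and 1427746_x_at had 110, 128 and 102. In all 3 of these probe sets each array was over its threshold, and the fitted values were 3.44 ± 0.15, 3.44 ± 0.12 and 1.34 ± 0.12 log2 units (SE, n = 3 arrays; limma adjusted p = 0.000295, 0.000182 and 0.00175). The last (1450534_x_at) straddled the threshold at 24.8, 35.9 and 57.5 and was not called. Replicate 1 was the highest array for 1451931_x_at and the lowest for 1425336_x_at and 1450534_x_at, so the arrays had no common order.

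H2-D1, which encodes the D heavy chain, had 9 probe sets, of which 2 were above background. Signals were 647, 716 and 534 with 1425545_x_at and 534, 459 and 480 with 1451784_x_at, or 3.82 ± 0.13 and 3.46 ± 0.12 log2 units over the threshold (SE, n = 3 arrays; limma adjusted p = 0.000173 and 0.000182). These 2 lay clear of background on every array. Another, 1451683_x_at, crossed the threshold on replicates 1 and 2 at 82.3 and 62.6 and lay under it on replicate 3 at 37.7, and was not called (limma adjusted p = 0.298). The remaining 6 had mean signals from 3.82 to 25.0 and no array over the threshold. The gene's call thus rested on 2 of 9 probe sets.

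The suffix of a probe set name tells how specific its probes are. Affymetrix gave _x_at to sets in which some probes also match other sequences, and _at alone to sets designed to match 1 transcript. The H2-K1 and H2-D1 probe sets above background were all of the _x_at kind, 5 of 11, beside 54.5% of all _x_at probe sets with 1 symbol. Both H2-D1 probe sets of the _at kind lay under the threshold on every array (0 of 2 called, beside 40.1% of all _at probe sets with 1 symbol), with 34.6, 18.2 and 22.3 for 1426324_at and 1.70, 31.6 and 10.4 for 1451934_at; neither had an unadjusted limma p under 0.05. H2-K1 had no _at probe set. With its brighter _at probe set in place of the highest, H2-D1 lay at -0.89 log2 units and was not called. The part of probes that match other class I genes in the heavy chain signal was not tested.

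Other class I and class I-like heavy chain genes that were measured were mostly not called. Of 26 listed, 13 had a probe set with 1 symbol, and 2 of these were called, beside 51.1% of all named genes. They were H2-Bl (328, 259 and 271, at 2.67 log2 units, limma adjusted p = 0.000417) and Cd1d1 (59.9, 80.9 and 78.6, at 0.70 log2 units, limma adjusted p = 0.0217). H2-L, H2-Q1, H2-Q4, H2-Q6, H2-Q7, H2-Q8, H2-T9, H2-T10, H2-T22, H2-T23, H2-M1, H2-M2 and H2-M5 had no such probe set. Cd1d1, a class I-like gene whose product presents lipids, was not called when replicate 2 (limma adjusted p = 0.106) or replicate 3 (0.0984) was dropped, and lay at -0.09 log2 units with its _at probe set. H2-Q2, H2-Q10, H2-T3, H2-T24, H2-M3, H2-M9 and H2-M10.1 were not called, nor were Mr1, Cd1d2, Fcgrt and Hfe, whose products also resemble class I chains. H2-M3, whose product presents formylated peptides, came nearest at 60.4, 43.1 and 30.95. The list's median was -0.92 log2 units.

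The K and D genes are near-copies of each other, also upstream of their starts, and their sequences are shown for that reason with that of B2m. RefSeq's GRCm38.p6 gene table lists H2-D1 among the synonyms of H2-K1 and H2-K1 among those of H2-D1, so names given to older cDNA clones of either can be exchanged. Promoter windows of GRCm38.p6 from RefSeq matched 8 of the 10 genes. The 250 bases before the farthest upstream annotated start are given 5′ to 3′ on the gene's strand, with capitals marking matches on either strand to GGGGATTCC (the core of the NF-kappa-B site known from class I enhancer A), GAAANNGAA (an interferon response core), TGACG (the core of a cyclic AMP response element), CCAAT and TTCNNNGAA (a gamma-activated site core). No match overlapped another motif. The windows are H2-K1 at chr17:34000348-34000597 (minus strand), H2-D1 at chr17:35262844-35263093 (plus strand) and B2m at chr2:122147437-122147686 (plus strand).
H2-K1: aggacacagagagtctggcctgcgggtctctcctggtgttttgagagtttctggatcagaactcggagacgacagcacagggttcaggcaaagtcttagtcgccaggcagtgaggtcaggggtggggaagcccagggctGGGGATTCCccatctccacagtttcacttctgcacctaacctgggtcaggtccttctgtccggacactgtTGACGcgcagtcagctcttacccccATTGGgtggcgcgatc
H2-D1: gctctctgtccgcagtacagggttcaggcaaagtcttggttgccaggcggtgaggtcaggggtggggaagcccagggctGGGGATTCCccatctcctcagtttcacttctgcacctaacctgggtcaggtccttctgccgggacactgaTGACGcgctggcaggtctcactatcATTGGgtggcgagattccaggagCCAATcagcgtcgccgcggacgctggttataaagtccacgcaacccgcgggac
B2m: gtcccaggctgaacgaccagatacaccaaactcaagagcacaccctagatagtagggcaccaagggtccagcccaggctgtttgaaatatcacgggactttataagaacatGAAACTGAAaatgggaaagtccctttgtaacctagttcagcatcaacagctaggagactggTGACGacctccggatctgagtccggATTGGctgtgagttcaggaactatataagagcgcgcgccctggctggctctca

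GGGGATTCC occurred in the H2-K1 and H2-D1 windows and in no other of the 8, and in 0.213% of all 32851 RefSeq promoter windows of that length. It began 111 bases before the annotated start of H2-K1 and 171 before that of H2-D1. Set side by side on that site without gaps, the 2 windows were identical at 166 of 190 bases (87.4%). The interferon response core was found in B2m alone of the 8, 139 bases before the start, and in 7.13% of all windows. TGACG occurred in 5 of the 8 and in 17.8% of all, and CCAAT in 6 of the 8 and in 33.8% of all. These counts are not of separate sites. The Tap1 and Psmb9 windows overlap, and their TGACG and CCAAT matches are the same bases read on opposite strands. The H2-K1 and H2-D1 windows are near-copies. TTCNNNGAA occurred in Psmb8 alone of the 8, 97 bases before the start, and in 7.02% of all. A match is a description of the letters, and the arrays hold no measurement of binding.

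The peptide transporter was not above background. Tap1, the first chain of the transporter, was measured by 4 probe sets and none was called. Its highest (1416016_at) had signals of 30.5, 26.7 and 48.2, over the threshold on replicate 3 and under it on the others (-0.39 ± 0.25 log2 units, SE, n = 3 arrays). The other 3 had mean signals of 15.9, 10.0 and 2.46. Tap2, the second chain, had 1 probe set with 2.87, 21.2 and 8.04, under the threshold on every array (-2.50 ± 0.65).

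Tapasin behaved otherwise. Tapbp, which bridges transporter and heavy chain, had signals of 292, 268 and 256 with 1421812_at and of 84.0, 107 and 99.3 with 1450378_at. All arrays were over the threshold with both probe sets, at 2.61 ± 0.11 and 1.11 ± 0.13 log2 units (SE, n = 3 arrays; limma adjusted p = 0.000279 and 0.00393). The second was not called with the threshold at the 99th percentile (limma adjusted p = 0.0598). Of 8 partner genes of peptide loading, 6 were above background, with a median of 5.43 log2 units. They were the chaperone genes Calr (4274, 4545 and 4533), Canx (4873, 4652 and 4631) and Hspa5 (6205, 6833 and 7292), the disulphide isomerase gene Pdia3 (5649, 5456 and 5501), Ganab and Uggt1. These serve the folding of many secreted proteins, not class I alone. The 2 that were not called act mainly on class I peptides: Erap1, the peptidase that trims them, had 24.8, 31.6 and 5.05, and the tapasin relative Tapbpl had 34.3, 33.4 and 4.29.

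The immunoproteasome subunits were divided. Psmb10 (MECL-1) had signals of 205, 261 and 210, all over the threshold, at 2.33 ± 0.13 log2 units (SE, n = 3 arrays; limma adjusted p = 0.000476). Psmb9 (LMP2) lay on the threshold itself with 38.8, 52.8 and 40.7, over it on replicate 2 and under it on replicates 1 and 3 (-0.03 ± 0.14). It was the one member whose call depended on where the threshold was drawn: with the dimmer bacterial control spots as background it lay at 0.95 log2 units and was called (limma adjusted p = 0.0131). Psmb8 (LMP7) had 1.11, 6.17 and 19.4 with 1444619_x_at and 9.66, 3.11 and 3.72 with 1422962_a_at, under the threshold on every array, at -3.13 ± 0.96 and -3.21 ± 0.42 log2 units.

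The constitutive catalytic subunits were called throughout. Psmb5 had signals of 4887, 4944 and 4677, Psmb6 of 4708, 4685 and 4528, and Psmb7 of 10056, 10090 and 9487, between 6.70 and 7.79 log2 units over the threshold. The thymus subunit Psmb11 (19.5, 5.10 and 35.6) was not above background. Of the proteasome activator PA28, Psme1 (849, 825 and 783) and Psme3 (977, 1027 and 827) were called, whereas Psme2 had no probe set with 1 symbol. The assembly genes Pomp and Psmg1 to Psmg4 were all called. In this list 10 of 11 measured genes were above background, with a median of 5.16 log2 units. Psmg4 lay at -0.20 log2 units with the median over its probe sets. The 3 immunoproteasome subunits and the 3 constitutive ones they replace were set against background only, since levels of different probe sets were not compared.

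Psmb9, Tap1, Psmb8 and Tap2 stand next to each other on chromosome 17 in that annotated order, and none of the 4 was above background, beside 51.1% of all named genes. Together they had 8 probe sets, of which 0 were called, beside 45.2% of all probe sets with 1 symbol, and 0 had an unadjusted limma p under 0.05. Psmb9 and Tap1 run in opposite directions from starts 226 bases apart, so the window of Tap1, at chr17:34187306-34187555 (plus strand) and marked as above, also holds most of the upstream sequence of Psmb9. It held 1 TGACG and 1 CCAAT match and none to the enhancer A site or the interferon response core. Nothing about the binding of a factor follows from that.
Tap1: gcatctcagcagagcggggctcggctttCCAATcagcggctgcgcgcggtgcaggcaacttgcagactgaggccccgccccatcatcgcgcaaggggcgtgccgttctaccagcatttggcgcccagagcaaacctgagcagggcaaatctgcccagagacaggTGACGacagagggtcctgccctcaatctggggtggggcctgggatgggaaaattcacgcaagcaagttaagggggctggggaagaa

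Elsewhere in the same stretch of the MHC most genes were called. Between Tapbp and Tap2 the annotation places 22 protein-coding genes, of which 6 belong to the 10 described here, and 2 of these, Tapbp and H2-K1, were above background. Of the 16 others, 15 were measured and 11 called, among them the ribosomal protein gene Rps18, the prefoldin gene Pfdn6 and the chromatin reader gene Brd2. Both counts are small and stand beside 51.1% of all named genes, and a difference from that share was not tested. Rps18 had signals of 13885, 14833 and 14747 with its highest probe set. Its _at probe sets lay at only 0.24 and -0.45 log2 units, and neither was called. The 4 that were not called were Col11a2, a cartilage collagen gene, and the class II genes H2-Oa, H2-DMa and H2-DMb2. Of these, H2-DMa and H2-DMb2 are the nearest measured genes before Psmb9. The class II genes H2-Ob, H2-Ab1 and H2-Aa, which follow Tap2, were not called either (-4.51, -0.83 and -2.77 log2 units). The run of uncalled genes thus continued into the class II genes on both sides. A wider list of MHC-linked genes with no role in antigen presentation shares most of these genes. In it 14 of 16 measured genes were above background, beside 51.1% of all named genes, with a median of 3.74 log2 units. Among them were Daxx (1175, 1082 and 837) and Bag6 (1071, 1101 and 859), and Ddx39b, which is the neighbour of H2-D1 (6409, 6944 and 5891). Ring1 (70.3, 71.1 and 72.3), the neighbour of H2-K1, was no longer called with any 1 array dropped (adjusted p between 0.0518 and 0.0633, limma).

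**Figure D2:**
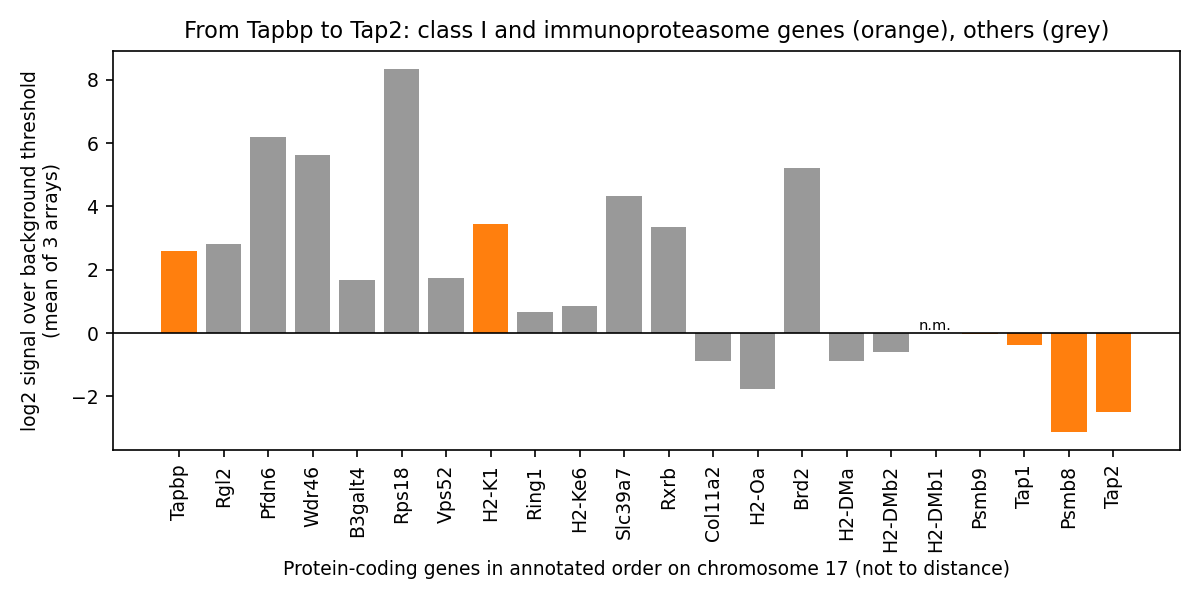
Mean log2 signal over the background threshold (3 arrays) of the 22 protein-coding genes from Tapbp to Tap2 in annotated order, with class I and immunoproteasome genes in orange, other genes in grey and H2-DMb1, which has no value here, marked n.m. Tapbp (2.61) and H2-K1 (3.44) stand over 0 among called neighbours, while Psmb9 (-0.03, too short to see), Tap1, Psmb8 and Tap2 close the row at or under 0. The measured class II genes just before Psmb9, H2-DMa and H2-DMb2, also lie under 0.

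The class I transactivator was not above background. Nlrc5 had signals of 23.9, 29.5 and 13.6, under the threshold on every array, at -1.07 ± 0.26 log2 units (SE, n = 3 arrays). Other factors known from class I promoters were mostly called, 9 of 12 measured, with a median of 2.21 log2 units. The subunits of RFX, the complex with which Nlrc5 works, were called: Rfx5 (133, 89.9 and 140), Rfxap (176, 227 and 195) and Rfxank (119, 100 and 105). So were Nfya, Nfyb and Nfyc, which bind CCAAT boxes, Creb1, the NF-kappa-B subunit gene Rela (369, 368 and 294) and Irf1 (230, 218 and 198; 2.27 log2 units, limma adjusted p = 0.000381), an activator of class I genes. Nfya lay at -0.88 log2 units with its _at probe set. Ciita, the class II counterpart of Nlrc5, had 34.5, 12.9 and 12.1 and was not called, nor were Irf2 and the leukocyte factor gene Irf8.

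The route by which interferon reaches these genes was in part above background. Of 12 measured receptors, kinases and factors 8 were called, with a median of 0.86 log2 units. Of the interferon gamma receptor, Ifngr1 (105, 97.4 and 134; 1.32 log2 units, limma adjusted p = 0.00498) was called and Ifngr2 (7.49, 30.0 and 29.4; -1.25 log2 units) was not. Both chains of the type I receptor were called, Ifnar1 at 193, 221 and 228 and Ifnar2 at 114, 91.6 and 84.8, though Ifnar2 lay at -1.16 log2 units with the median over its probe sets. The kinase genes Jak1 (542, 526 and 478), Jak2 (130, 171 and 104) and Tyk2 (174, 186 and 164) were called. Stat2 (66.7, 61.4 and 72.2) and Irf9 (87.0, 65.3 and 55.9) were called at 0.58 and 0.61 log2 units, and neither was called with any 1 array dropped (adjusted p between 0.0636 and 0.113 for Stat2 and between 0.0871 and 0.145 for Irf9, limma). Neither interferon gene listed, Ifng or Ifnb1, was called.

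Genes that interferon induces were mostly not called. Of 13 measured, 2 were above background, beside 51.1% of all named genes, and the median was -1.54 log2 units. Oas1a (114, 90.04 and 93.2; 1.14 log2 units, limma adjusted p = 0.00428) and Bst2 (91.2, 79.2 and 70.7; 0.84 log2 units, adjusted p = 0.00859) were the 2. Bst2 was not called with replicate 1 dropped (adjusted p = 0.0519, limma). Ifit1 (13.0, 24.5 and 11.4), Ifit2, Ifit3, the guanylate-binding protein genes Gbp2 (2.86, 24.3 and 18.6) and Gbp3, Igtp, Irgm1, Iigp1, Cxcl10 (6.21, 6.51 and 2.73), Rsad2 and Usp18 were not called. Of these, Rsad2 was over the threshold on all 3 arrays (70.8, 56.1 and 47.6, limma adjusted p = 0.130). It was called in 2 of 15 alternative settings. Isg15 had no probe set with 1 symbol.

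Of the 8 measured MHC class II genes, 0 were above background by limma and 0 had an unadjusted p under 0.05. H2-Aa had 19.4, 11.7 and 1.24, H2-Ab1 35.1, 35.2 and 12.8, and the invariant chain gene Cd74 66.0, 94.5 and 29.2. The leukocyte marker Ptprc lay at 15.2, 3.12 and 13.6. Over the 8 leukocyte markers the summed signal ranged from 192 to 227 between arrays. Csf1r, a macrophage receptor gene, was the leukocyte marker that was called (79.4, 85.1 and 93.8), and it lay at -0.26 log2 units with its _at probe set. Of the NKG2D ligands, which natural killer cells read on stressed cells, only H60c and Ulbp1 of 9 listed had a probe set with 1 symbol, and neither was called (limma; 0 had an unadjusted p under 0.05).

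**Figure D3:**
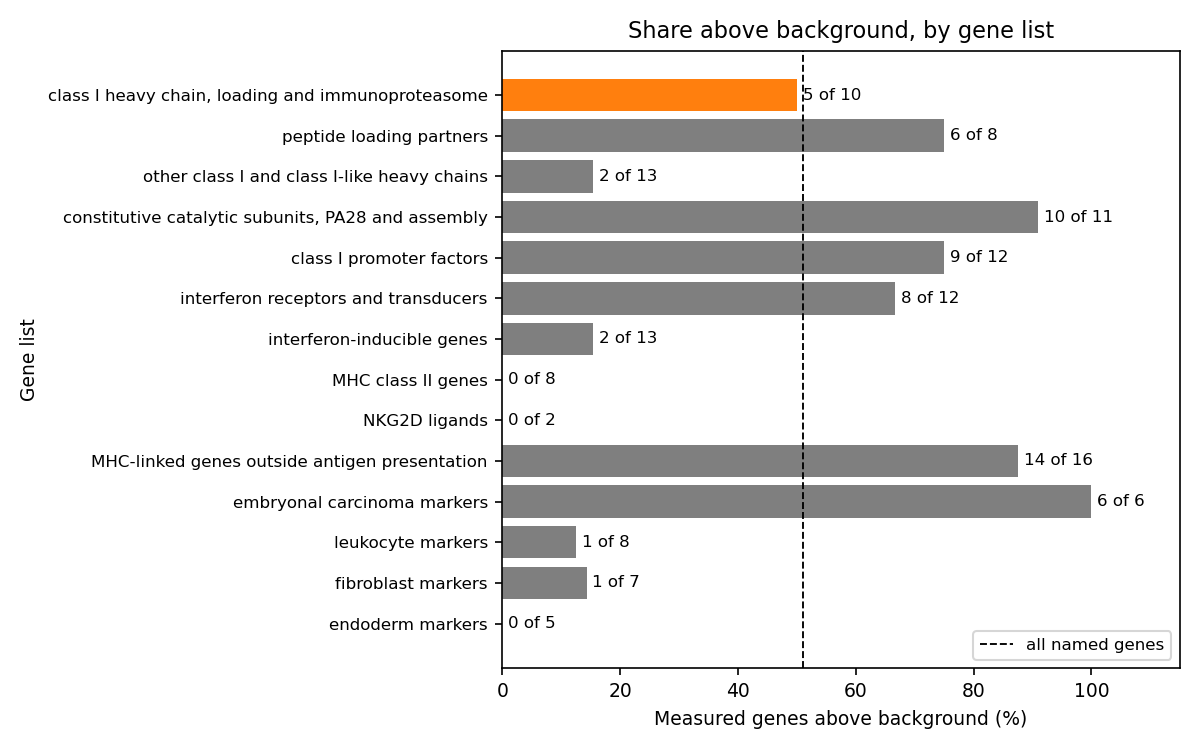
Share of measured genes above background (%) in each gene list, with counts at the bar ends and a dashed line at the 51.1% of all named genes. The class I and immunoproteasome list (orange, 5 of 10) ends just short of the line, the constitutive proteasome (10 of 11) and MHC-linked (14 of 16) lists pass it, and the interferon-inducible (2 of 13) and class II (0 of 8) lists lie far below it.

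Over the 15 alternative settings, B2m, Tapbp and Psmb10 were called in 15 of 15, H2-K1 in the 14 that gave it a value, and H2-D1 in 12. Tap1, Tap2, Nlrc5 and Psmb8 were called in 0 of 15. Psmb9 was called in 1 of 15. The signals of the 10 called probe sets differed little between arrays, by 1.12 to 1.45 times from the lowest to the highest, whereas those of the 17 others differed by 1.36 to 18.6 times. The limma test weighs signal against the spread between arrays, so this contrast follows in part from the call itself.

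**Figure D4:**
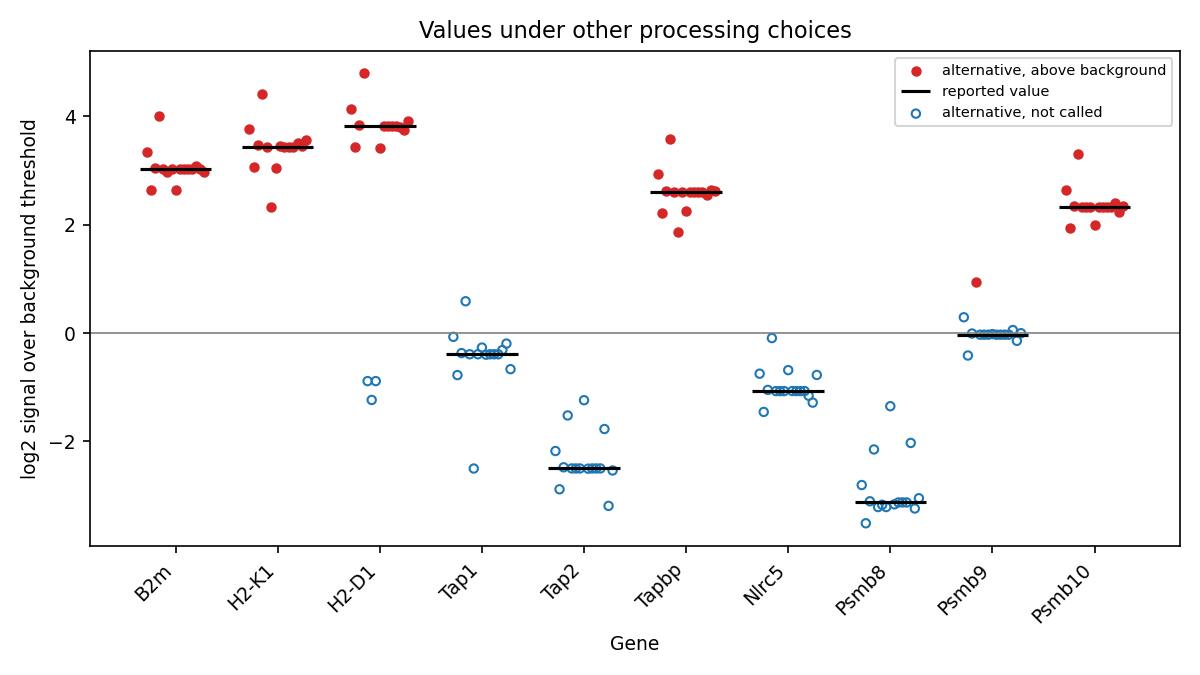
Log2 signal over the background threshold of each gene as reported (black line) and under each alternative setting (filled red where called, open blue where not). H2-D1 falls from 3.82 to -0.89 or -1.23 in the 3 settings that set aside or average its highest probe set, and Psmb9 rises to 0.95 in 1, while the 8 other genes keep their side of the call.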

How the data were processed

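The deposited table gives a linear intensity for each probe set on each array. The authors used GCOS 1.4, per the submitters' processing notes; how probe brightness became a signal is not stated in those notes. The deposited intensities had a mean of 250.0 on each array after trimming 2% at each end, so the arrays were already scaled and no further normalization was applied. Names came from a platform annotation of 2016. The background threshold was each array's 95th percentile over 127 probe sets of 114 olfactory, vomeronasal and taste receptor and keratin-associated protein genes. From the deposited intensities, log2 signal minus log2 threshold was fitted with limma 3.58.1 (lmFit, eBayes) in R 4.3.3 over all 45037 probe sets other than controls, and checked on simulated arrays. The number of arrays limits the precision. Every probe set of the 10 genes is reported, and any measured gene of the context lists could be named. Members, lists and alternatives were chosen with earlier results of these data known. Likeness between genes was not computed, since 3 replicates of 1 group give no pattern.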

Additional observations from a re-analysis of the deposited data

Results flagged for a closer look

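A probe set outside the comparisons, because its annotation names both H2-K1 and H2-D1, gave a signal above background: 84.4, 67.8 and 81.3 on replicates 1, 2 and 3, or 0.80 log2 units over the threshold (limma adjusted p = 0.0127). The call was lost without replicate 1 (limma adjusted p = 0.0755), without replicate 3 (0.0694) and with the threshold at the 99th percentile (0.190). The 2 other probe sets that name a member among several genes were not called: 8.58, 3.78 and 23.1 for that of Gm38417, H2-Q2 and H2-D1, and 7.28, 47.6 and 16.7 for that of H2-Q5 and H2-K1.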

How the results depend on the processing

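B2m, H2-K1, Tapbp and Psmb10 were called under every alternative that gave them a value, and Tap1, Tap2, Nlrc5 and Psmb8 under none. H2-D1 turned to -0.89 log2 units when its probe set was picked by suffix or the _s_at and _x_at kinds were dropped, and to -1.23 with the median over probe sets. Psmb9 turned to 0.95 with the bacterial control threshold. With the _s_at and _x_at kinds dropped, 3 of 9 genes and 5 of 14 probe sets were called, in place of 5 of 10 and 10 of 27, beside 49.9% of all named genes in that setting; H2-K1 has no value there. Leaving out any 1 replicate kept 5 genes and 10 probe sets called. The share of all named genes called ranged from 43.6% with the median over probe sets to 59.3% with the bacterial control threshold. Of the counts in the other lists, 23 moved by over 1.5 times, in lists with few called genes. Adjustment over representative probe sets, and the choice of probe set by suffix or median, give no count of probe sets. No paired analysis was possible because all arrays form 1 group.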
